A study of Mus musculus with 41 samples.

Results

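The 40 genes described here are mouse genes of the cell division cycle. They were chosen by name, from the gene symbols of a table of 24511 genes. No measured value entered the rule, but earlier results of these data were known when the genes were chosen. Their counts and p-values are therefore not those of an independent pick. They cover entry into the cycle, the loading of the replicative helicase, DNA synthesis, the cyclins and kinases of S phase and mitosis, the spindle checkpoint, the kinetochore and the spindle. Each of the 40 symbols was found, and 38 genes passed a filter that asked for a mean value of 3 or more. Bub1 and Cdc6 did not pass and are described apart. One kept gene, Ccnb1, had a mean under 3 in the non-tumour libraries and passed through its values in tumours. Ccnb1 is included in the counts and means below, but its calls in tumours are not support for a rise there.

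The libraries are polyA RNA-seq of liver or liver tumour from male C57BL/6 mice, 35 in all. NC livers, which the labels call healthy without explaining NC, came from CD8kMup, IgAkMup, MupHe and B6 mice. Livers with fat but called healthy, the HFD controls on a high-fat diet (HFD), came from IgAkCLM and B6 mice. NASH livers, with steatohepatitis on the same diet, came from IgAkMup and MupHe mice, and liver tumours called HCC (hepatocellular carcinoma) from CD8kMup, IgAkMup and MupHe mice. MupHe HCC and IgAkMup HCC held 4 libraries each, and the other 9 groups held 3. The labels explain none of the genotype names and give no ages, and these names are kept as written. The labels do not say that libraries of a group came from separate animals, so p-values measure only the spread between these libraries, which may be technical.

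A cell that divides first passes a restriction point in G1, where cyclin D and cyclin E kinases release E2F factors from the retinoblastoma family. E2F factors then switch on genes of helicase loading and DNA synthesis, and a later wave of genes, led by B-MYB and FOXM1, builds the mitotic machinery. Adult hepatocytes are mostly quiescent, re-enter the cycle after tissue loss or injury, and often become polyploid. RNA of these genes is therefore used as a gauge of how many cells of a tissue are cycling. In bulk tissue, fewer cells of a type and less RNA per cell cannot be told apart.

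All values are regularized log2 values, on which a difference of 1 is nominally a doubling. At low counts such values are drawn toward the gene's mean, so differences of weak genes may be understated and rank too low. They are not scaled by gene length, so levels are compared between libraries and not between genes. Sequencing depth was unknown, since no counts were used, so weakly expressed genes may carry errors that cannot be stated here. The tumour libraries stood apart from the rest on the first principal component, which held 47.9% of the variance, and MupHe HCC 3, IgAkMup HCC 5 and IgAkMup HCC 9 stood apart from the other tumours on the second. The 13 hepatocyte markers averaged 12.8 to 14.2 in tumours and 14.5 to 15.0 in the other libraries, so the liver identity of the samples showed in every group. Column names hold tags without an explanation in the labels: SS H for HCC, Tri NC for NC, SS N for B6 HFD control and IgAkMup NASH, and Tri N for IgAkCLM HFD control and MupHe NASH. Whatever these tags stand for and the stage cannot be told apart in most of the comparisons across stages.

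The mean level of the 38 genes, taken per library, was highest in tumours. In NC livers it was 4.86, 5.43 and 5.15 in CD8kMup, 4.99, 4.95 and 4.95 in IgAkMup, 4.80, 4.76 and 4.66 in MupHe and 4.57, 4.68 and 4.62 in B6. HFD controls gave 4.57, 4.86 and 4.58 in IgAkCLM and 4.93, 4.98 and 5.12 in B6. NASH livers gave 5.16, 5.24 and 5.25 in IgAkMup and 5.40, 5.36 and 4.84 in MupHe. Tumours gave 5.85, 5.46 and 5.76 in CD8kMup, 5.95, 5.52, 5.99 and 6.37 in IgAkMup and 5.72, 5.84, 6.20 and 6.17 in MupHe. The lowest tumour, CD8kMup HCC 4 at 5.46, was just above the highest other library, CD8kMup NC 2 at 5.43. Within groups, MupHe NASH 6 was low at 4.84, beside IgAkMup HCC 7 at 5.52 and IgAkMup HCC 9 at 6.37 as the ends of their group. Neighbours in this order, such as IgAkMup NASH at 5.22 ± 0.05 and MupHe NASH at 5.20 ± 0.31, or IgAkMup HCC at 5.96 ± 0.35 and MupHe HCC at 5.98 ± 0.24 (SD), did not differ beyond their spread. The mean is a description, and no p is given for it.

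**Figure D1:**
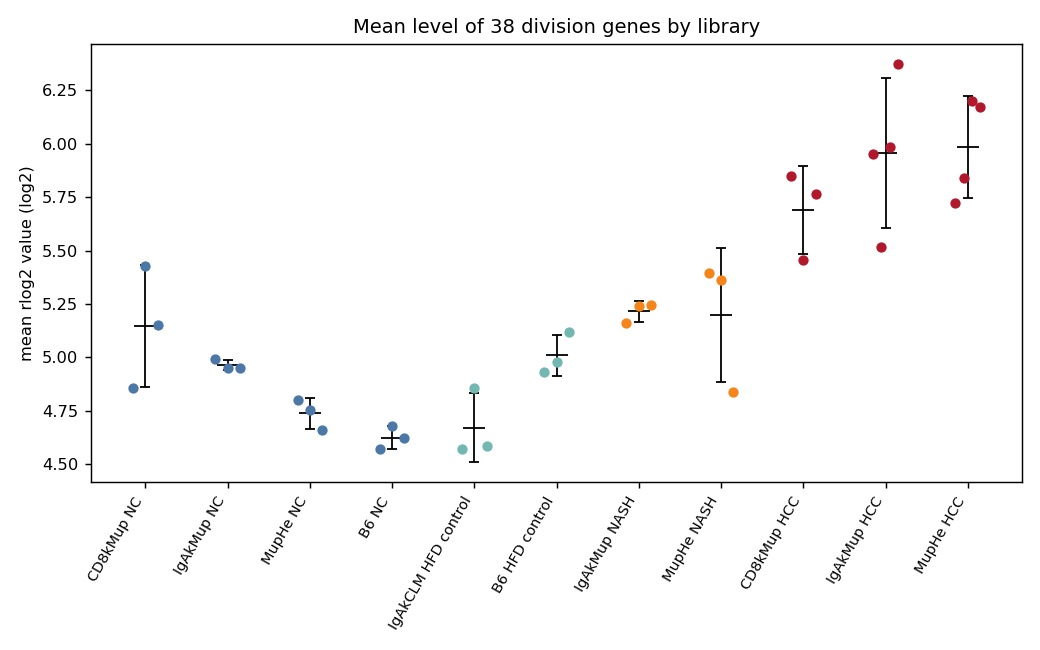
Mean regularized log2 value of the 38 kept division genes (vertical axis, log2) in each library (points), by group in the order NC, HFD control, NASH and HCC, with the group mean and SD (bars). The 11 tumour libraries lie between 5.46 and 6.37, and the other 24 libraries reach 5.43.

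Tumours were set against NASH livers of the same genotype to ask how far division RNA differed between the last stages of the disease. In MupHe, 29 of the 38 genes were higher in HCC than in NASH and none was lower, against 16% of the 12337 genes tested called higher and 30.7% called in either direction. In IgAkMup, 27 of the 38 were higher and none was lower, against 23.2% of genes called higher and 43.8% called in either direction. The median difference of the 38 was 0.80 in both genotypes, against 0.00 in MupHe and 0.04 in IgAkMup over the genes tested. Calls rest on limma, with p-values adjusted over all 12337 genes by the method of Benjamini and Hochberg and a threshold of 0.05, and errors of differences are standard errors of that fit. In MupHe the count was 17 with limma's library weights (against 21.5% of genes in either direction) and 9 in a fit of these groups alone (against 9.81%). It was 14 without NASH library 6, the low one. The share of all genes in that fit is not given here, so the 14 is not read as a result about the 38. In IgAkMup the count was 17 in a fit of these groups alone (against 26%) and 16 without the tumours that stood apart (against 40.8%). That last setting left only libraries 7 and 8 in IgAkMup HCC. The 24 genes called in both genotypes make up 82.8% of the MupHe calls and 88.9% of the IgAkMup calls.

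At the entry to the cycle, Ccne1, which encodes cyclin E1, was the one gene of 4 that rose. Ccne1 stood at 4.24, 4.29, 4.64 and 4.49 in MupHe HCC, against 4.17, 3.63 and 3.55 in MupHe NASH. In IgAkMup it stood at 4.48, 5.28, 4.53 and 4.19 in HCC, against 4.25, 3.46 and 4.18 in NASH. The MupHe groups did not overlap, with NASH 1 just under the lowest tumour, while the IgAkMup groups overlapped through IgAkMup HCC 9. Ccne1 was higher in HCC by 0.64 ± 0.24 in MupHe (limma adjusted p = 0.0412) and by 0.66 ± 0.24 in IgAkMup (limma adjusted p = 0.0252). In 7 fits per genotype, each without a library of the pair, Ccne1 was no longer called in 4 in MupHe and 2 in IgAkMup, and in MupHe it was also not called with no filter, quantile normalisation, library weights or a fit of these groups alone.

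Its relative Ccne2, which encodes cyclin E2, held close to 4 in both stages. Ccne2 read 4.54, 4.44, 3.91 and 3.88 in MupHe HCC, against 4.07, 4.20 and 4.0 in MupHe NASH. In IgAkMup it read 3.76, 3.92, 3.94 and 4.45 in HCC, against 4.07, 4.19 and 4.13 in NASH. The tumours spread on both sides of the NASH livers, and the differences were 0.10 ± 0.17 and -0.11 ± 0.17 (limma adjusted p = 0.688 and 0.617). In the GENCODE annotation, 17.4% of the exon bases of Ccne2 overlap exons of Ints8 on the opposite strand. Whether the counting used strand is not given in the sources used here, so reads of such pairs may not have been told apart.

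Ccnd1 encodes cyclin D1, the mitogen-sensing cyclin of G1, and lies at chr7:144929931-144939925 (GRCm38, minus strand, GENCODE annotation). Ccnd1 stood at 8.46, 9.23, 9.68 and 9.56 in MupHe HCC, against 9.62, 9.98 and 9.45 in MupHe NASH. IgAkMup HCC gave 9.66, 9.27, 11.51 and 8.77, against 9.27, 9.08 and 9.80 in IgAkMup NASH. The groups overlapped in both genotypes, and IgAkMup HCC 8 at 11.51 was the highest library of the whole set. The differences were -0.45 ± 0.44 in MupHe and 0.42 ± 0.44 in IgAkMup, opposite in sign and neither called (limma adjusted p = 0.464 and 0.452). Exons of LTO1 on the opposite strand cover 23.4% of the exon bases of Ccnd1. E2f1, which encodes an activating E2F factor, differed by 0.57 ± 0.24 in MupHe and 0.47 ± 0.24 in IgAkMup and was not called in either (limma adjusted p = 0.0784 and 0.116).

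The MCM genes, which encode the ring of subunits that unwinds DNA at the replication fork, rose more widely. In MupHe, 6 of 6 were higher in HCC, and in IgAkMup 4 of 6, with Mcm3 (0.52 ± 0.21) and Mcm4 (0.25 ± 0.18) short of the threshold (limma adjusted p = 0.0508 and 0.252). Some of these calls were easily lost. In 7 fits per genotype, each without a library of the pair, Mcm4 was no longer called in 5 in MupHe. Mcm5 was no longer called in 4 in MupHe and 5 in IgAkMup, and Mcm2 in 4 in IgAkMup. Mcm6 had the largest difference of any of the 38 genes in MupHe. Mcm6 stood at 7.53, 9.21, 7.71 and 8.89 in MupHe HCC, against 7.01, 7.00 and 6.34 in MupHe NASH. The IgAkMup tumours read 8.37, 7.50, 8.85 and 8.77, against 7.13, 7.28 and 7.19 in the NASH livers. Every tumour of both genotypes was above every NASH liver, and the tumours themselves spread over more than 1 unit, from MupHe HCC 3 at 9.21 to IgAkMup HCC 7 at 7.50. The difference was 1.55 ± 0.33 in MupHe (limma adjusted p = 0.000739) and 1.17 ± 0.33 in IgAkMup (limma adjusted p = 0.005).

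The promoters of Mcm6, here, and Prc1, below, are shown by rank of their rise and not by motif. Genes called higher in HCC than in NASH in both genotypes were ordered by their smaller difference, and these led. The Mcm6 promoter holds letters through which E2F factors are known to bind. The window runs from 250 bases before to 50 bases after the RefSeq start, at chr1:128359656-128359955 (GRCm38.p6, minus strand, written 5′ to 3′). Capitals mark E2F-type elements, beginning 110, 106 and 47 bases before the start, of which the first and second overlap, and CCAAT boxes read on the opposite strand (ATTGG) at 57 and 14 bases before it.
Mcm6: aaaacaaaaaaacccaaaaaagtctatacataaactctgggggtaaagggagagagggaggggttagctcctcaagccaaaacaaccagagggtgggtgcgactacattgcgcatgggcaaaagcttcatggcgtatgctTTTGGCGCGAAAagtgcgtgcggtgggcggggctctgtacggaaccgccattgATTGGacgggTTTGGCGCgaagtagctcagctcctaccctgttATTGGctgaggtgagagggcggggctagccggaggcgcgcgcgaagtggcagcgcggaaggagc

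Mcm2, another helicase subunit, stood at 7.25, 6.93, 6.60 and 7.17 in MupHe HCC, against 6.50, 6.22 and 5.80 in MupHe NASH. For IgAkMup the values were 6.51, 7.09, 6.90 and 7.01 in HCC, against 6.38, 6.29 and 6.30 in NASH. Neither pair of groups overlapped, and the margin was smaller in IgAkMup, where HCC 5 at 6.51 lay near NASH 2 at 6.38. Mcm2 was higher by 0.82 ± 0.20 (limma adjusted p = 0.00227) and by 0.55 ± 0.20 (limma adjusted p = 0.0232). Among the other subunits, Mcm5 rose by 0.61 and 0.62 and Mcm7 by 0.60 and 0.54 in MupHe and IgAkMup, and Mcm3 and Mcm4 rose by 0.77 and 0.47 in MupHe.

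Genes of DNA synthesis and nucleotide supply held few calls. Of 5, Pcna and Tk1 rose in MupHe and none passed in IgAkMup. Tk1, which encodes the thymidine kinase that salvages thymidine for S phase, stood at 6.41, 7.98, 7.21 and 7.13 in MupHe HCC, against 6.28, 5.95 and 5.89 in MupHe NASH. In IgAkMup it stood at 7.48, 6.23, 6.45 and 7.65 in HCC, against 6.78, 6.33 and 6.38 in NASH. The MupHe groups did not overlap, while IgAkMup HCC 7 and 8 lay among or under the NASH livers. Tk1 was higher by 1.14 ± 0.30 in MupHe (limma adjusted p = 0.00452) and differed by 0.46 ± 0.30 in IgAkMup (limma adjusted p = 0.217).

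Rrm2 encodes the regulated subunit of ribonucleotide reductase, which makes the deoxynucleotides for replication. Rrm2 stood at 6.59, 6.20, 7.74 and 7.37 in MupHe HCC, against 6.28, 6.32 and 6.08 in MupHe NASH. IgAkMup HCC gave 6.42, 6.63, 7.59 and 7.30, against 6.60, 6.68 and 6.44 in IgAkMup NASH. In each genotype 2 tumours were above 7 and the other two lay among the NASH livers or close to them. The differences of 0.75 ± 0.29 and 0.41 ± 0.29 were not called (limma adjusted p = 0.0533 and 0.262). Pcna, the gene of the sliding clamp of DNA polymerases, rose by 0.44 ± 0.14 in MupHe (limma adjusted p = 0.0157). Rrm1, the large subunit of the reductase, differed by 0.41 and 0.17, and Tyms, thymidylate synthase, by 0.39 and -0.16 in MupHe and IgAkMup, with no call. Pcna and Tyms have annotated pseudogenes, as have Ccnb1 and Ccnb2, and reads of near-identical copies may have been split among them, so values of these 4 genes are uncertain.

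The cyclins of S phase and mitosis, their kinase and the factor FOXM1 rose in 4 of 5 cases in each genotype. Cdk1, which encodes the kinase that drives entry into mitosis, stood at 6.30, 6.43, 7.03 and 6.36 in MupHe HCC, against 5.37, 5.37 and 4.93 in MupHe NASH. The IgAkMup tumours read 6.58, 5.68, 6.06 and 7.01, against 5.60, 5.71 and 5.38 in the NASH livers. The lowest MupHe tumour was well above the MupHe NASH livers, while IgAkMup HCC 7 lay within the IgAkMup NASH range. Cdk1 was higher by 1.30 ± 0.23 in MupHe (limma adjusted p = 8.93e-05) and by 0.77 ± 0.23 in IgAkMup (limma adjusted p = 0.00751).

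Ccnb2, one of the B-type cyclins that activate the CDK1 kinase, stood at 4.88, 4.83, 5.89 and 5.38 in MupHe HCC, against 5.09, 4.83 and 4.35 in MupHe NASH. For IgAkMup the values were 5.61, 5.07, 5.46 and 5.81 in HCC, against 4.45, 4.72 and 4.78 in NASH. Only the IgAkMup groups were apart. Ccnb2 differed by 0.49 ± 0.22 in MupHe (limma adjusted p = 0.0912) and rose by 0.84 ± 0.22 in IgAkMup (limma adjusted p = 0.00285). Ccna2, the cyclin of S phase and G2, rose by 1.27 and 1.04, and Foxm1 by 1.03 and 0.65 in MupHe and IgAkMup. Ccnb1 rose by 0.82 ± 0.20 in MupHe and differed by 0.47 ± 0.20 in IgAkMup (limma adjusted p = 0.0029 and 0.061). Since Ccnb1 passed the filter through its tumour values, these differences do not count as support for a rise in tumours.

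Mitotic kinases, checkpoint genes and the activator of the anaphase-promoting complex were higher in HCC in 5 of 5 cases in both genotypes. Plk1, the gene of polo-like kinase 1, which acts at centrosomes, kinetochores and the midzone, stood at 4.74, 4.67, 5.35 and 5.33 in MupHe HCC, against 3.97, 4.16 and 3.34 in MupHe NASH. In IgAkMup it stood at 4.96, 4.28, 4.65 and 5.23 in HCC, against 3.45, 4.0 and 3.45 in NASH. Tumours and NASH livers were apart in both genotypes, and the differences were 1.20 ± 0.21 and 1.15 ± 0.21 (limma adjusted p = 0.000128 and 0.000108). Aurka, the gene of the spindle pole kinase Aurora A, rose by 1.07 and 0.87, and Aurkb, the kinase of the chromosomal passenger complex, by 1.04 and 0.73 in MupHe and IgAkMup. Bub1b, a checkpoint gene, rose by 0.72 and 0.92, and Cdc20, the target of that checkpoint, by 0.87 and 0.91.

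Genes of the passenger complex and the kinetochore rose in 3 of 4 cases in MupHe and in 4 of 4 in IgAkMup. In 7 fits, each without a library of the MupHe pair, Birc5 was no longer called in 4. Birc5, which encodes survivin, rose by 0.66 and 0.85, Cdca8, which encodes borealin, by 0.61 and 0.54, and Cenpf by 0.96 and 1.17. Cenpe, the kinetochore motor that aligns chromosomes, differed by 0.36 ± 0.19 in MupHe without a call (limma adjusted p = 0.154) and rose by 0.99 ± 0.19 in IgAkMup (limma adjusted p = 0.000127).

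Genes of the spindle and of cytokinesis were called higher in 7 of 7 cases in both genotypes. Prc1 encodes the protein that bundles antiparallel microtubules in the midzone, where the cell will divide. Prc1 stood at 5.91, 5.44, 6.64 and 6.03 in MupHe HCC, against 4.99, 4.98 and 4.06 in MupHe NASH. IgAkMup HCC gave 6.10, 5.42, 5.84 and 6.25, against 4.64, 4.72 and 4.88 in IgAkMup NASH. Every tumour was above every NASH liver of both genotypes, by 1.33 ± 0.26 in MupHe (limma adjusted p = 0.000391) and 1.16 ± 0.26 in IgAkMup (limma adjusted p = 0.000855). Exons of Rccd1 on the opposite strand overlap 11.1% of the exon bases of Prc1.

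The promoter of Prc1, ranked next to Mcm6, is shown in the same length of window, at chr7:80294201-80294500 (GRCm38.p6, plus strand, 5′ to 3′). It holds no E2F-type element. Capitals mark a CCAAT box beginning 37 bases before the RefSeq start and a CHR-type element (TTTGAA) beginning 5 bases before it.
Prc1: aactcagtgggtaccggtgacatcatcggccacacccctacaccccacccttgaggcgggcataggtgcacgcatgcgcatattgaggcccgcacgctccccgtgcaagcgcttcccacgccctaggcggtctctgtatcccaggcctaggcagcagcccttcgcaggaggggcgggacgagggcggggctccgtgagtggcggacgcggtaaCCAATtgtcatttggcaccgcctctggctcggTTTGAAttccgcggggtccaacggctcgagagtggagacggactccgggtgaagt

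Tpx2, which encodes a factor that activates Aurora A on the spindle, stood at 5.30, 5.21, 5.73 and 6.07 in MupHe HCC, against 4.89, 4.94 and 4.11 in MupHe NASH. The IgAkMup tumours read 5.71, 5.23, 5.64 and 6.15, against 4.23, 4.41 and 4.49 in the NASH livers. The groups were apart in both genotypes, by 0.93 ± 0.25 and 1.30 ± 0.25 (limma adjusted p = 0.00668 and 0.000176). The mitotic motors Kif11 and Kif20a rose by 0.79 and 1.10 in MupHe and by 0.93 and 0.98 in IgAkMup. Nusap1, a spindle microtubule protein, rose by 0.85 and 0.84, Hmmr by 0.87 and 1.10, and Ect2, which switches on the contractile ring, by 0.94 and 0.93. Exons of Cdc23 on the opposite strand overlap 29.3% of the exon bases of Kif20a.

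Mki67, which encodes the Ki-67 protein that coats mitotic chromosomes and serves pathologists as a proliferation stain, was called in IgAkMup and not in MupHe. Mki67 stood at 7.12, 6.88, 7.09 and 7.65 in MupHe HCC, against 6.79, 6.85 and 5.83 in MupHe NASH. For IgAkMup the values were 7.28, 6.68, 7.49 and 8.34 in HCC, against 6.09, 6.16 and 6.03 in NASH. The MupHe groups nearly touched, since NASH 1 and 2 came close to the lowest tumour, whereas the IgAkMup groups were well apart. The differences were 0.69 ± 0.29 in MupHe (limma adjusted p = 0.0683) and 1.35 ± 0.29 in IgAkMup (limma adjusted p = 0.000452).

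Top2a, the gene of the topoisomerase that untangles sister chromosomes, stood at 6.27, 6.66, 7.06 and 6.89 in MupHe HCC, against 5.91, 5.97 and 5.02 in MupHe NASH. In IgAkMup it stood at 6.66, 6.23, 6.70 and 7.80 in HCC, against 5.47, 5.65 and 5.31 in NASH. Tumours and NASH livers did not overlap in either genotype, and Top2a was higher by 1.09 ± 0.28 (limma adjusted p = 0.00405) and 1.37 ± 0.28 (limma adjusted p = 0.000283). Counted in this way, 23 of the 38 genes had every MupHe tumour above every MupHe NASH liver, against 14.9% of the genes tested, and 22 had every IgAkMup tumour above every IgAkMup NASH liver, against 20.9%.

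**Figure D2:**
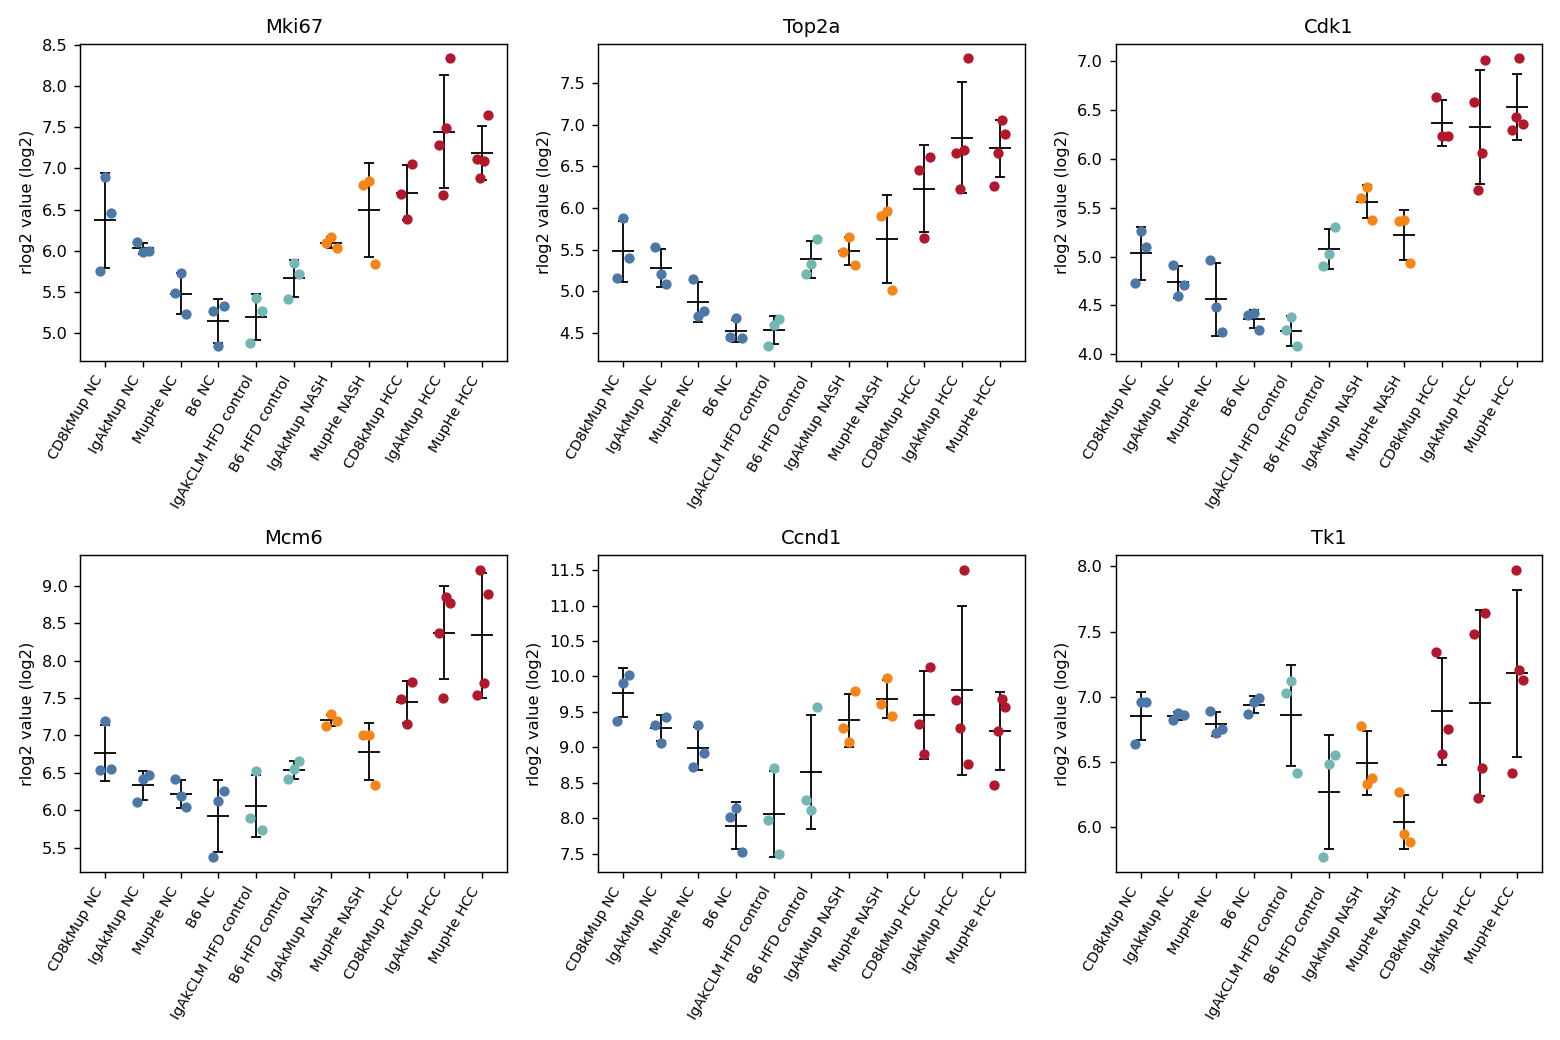
Regularized log2 values (vertical axes, log2) of Mki67, Top2a, Cdk1, Mcm6, Ccnd1 and Tk1 in each library (points), by group from NC to HCC, with group means and SD (bars). Mki67, Top2a, Cdk1 and Mcm6 stand highest in tumours, Ccnd1 overlaps between NASH and HCC, and Tk1 has its lowest group mean in MupHe NASH, at 5.89 to 6.28, with B6 HFD control 1 the lowest library at 5.77.

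The difference between the genotypes in the change from NASH to HCC was tested gene by gene. None of the 38 passed, while 10% of all genes did, and 2 had an unadjusted p under 0.05 by limma, against 25.9% of all genes. They were Cenpe, with a change larger in IgAkMup by 0.64 ± 0.27 (limma adjusted p = 0.123), and Tyms, with a change smaller in IgAkMup by -0.54 ± 0.26 on the scale of IgAkMup minus MupHe (limma adjusted p = 0.188). So the calls of Ccnb1, Mcm3, Mcm4, Pcna and Tk1 in MupHe alone and of Mki67, Ccnb2 and Cenpe in IgAkMup alone do not show a difference between the genotypes. IgAkMup NASH was also put in the place of MupHe NASH, so that both groups carried an SS tag. Then 28 of the 38 genes were higher in MupHe HCC, against 15.1% of the genes tested, and Ccne1, Mcm5, Mcm7 and Tk1 were no longer called. This exchange compares across genotypes, and the tags still differ, SS H against SS N.

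**Figure D3:**
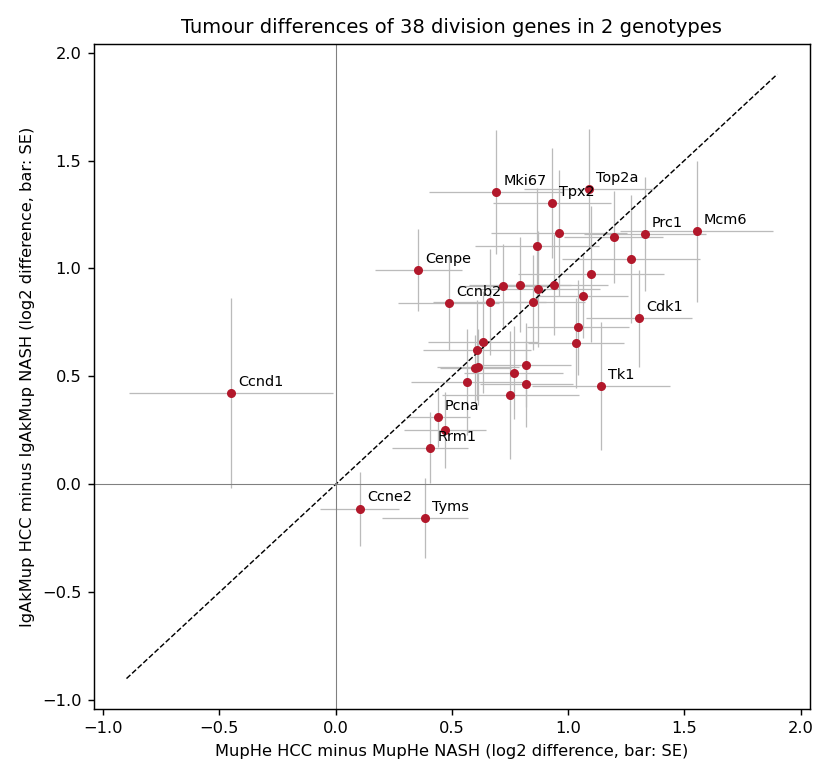
Difference of each of the 38 genes between HCC and NASH in MupHe (horizontal axis) and in IgAkMup (vertical axis), in log2 units with SE (bars). The dashed line marks equal differences, Ccnd1 lies at -0.45 and 0.42, while Mcm6 lies at 1.55 and 1.17 and Prc1 at 1.33 and 1.16.

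Markers of other cells moved with the same comparison. Of 13 hepatocyte markers, 6 were lower in HCC in MupHe and 8 in IgAkMup, beside 30.7% and 43.8% of all genes called in either direction. Of 10 markers of recruited macrophages and monocytes, 7 and 9 were higher, and their mean level ran from 6.90 to 7.64 in MupHe HCC and 7.30 to 7.97 in IgAkMup HCC, against 6.08 to 6.31 in MupHe NASH and 6.14 to 6.38 in IgAkMup NASH. Of 8 Kupffer cell markers, 6 and 8 were lower. T cell markers rose in 0 and 3 of the 5 that were kept, B cell and plasma cell markers in 0 and 1 of 4, and cholangiocyte markers in 1 and 3 of 7. Of all genes, 16% and 23.2% were called higher, so the counts of 1 lie near that share. Spp1 is in both the macrophage and the cholangiocyte list. By mean level, endothelial and stellate cell and fibroblast markers overlapped between HCC and NASH in both genotypes. Erythroid markers overlapped in MupHe and were lower in IgAkMup HCC, at 7.25 to 7.90 against 8.51 to 8.86. No marker was at 0 in every library of a group. The part of these cells in the division values was not tested.

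Tumours were next set against NC livers of the same genotype, which adds CD8kMup. NC livers and tumours also differ in tag and in the processing tools listed, and whether they were scaled together is not given. The stage cannot be told apart from these. In MupHe, 35 of the 38 genes were higher in HCC, against 20.6% of genes called higher and 40.1% called in either direction. In IgAkMup, 31 were higher, against 22.9% and 45%. In CD8kMup, 16 were higher, against 16.8% and 33.8%. None of the 38 was lower in any of the 3 genotypes, and the median differences were 1.28, 1.02 and 0.57. The 16 CD8kMup calls were also made in both of the other genotypes, where they are 45.7% of the MupHe and 51.6% of the IgAkMup calls.

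Mcm6 again showed the largest difference in MupHe and IgAkMup. Its NC values were 6.42, 6.18 and 6.05 in MupHe and 6.11, 6.42 and 6.48 in IgAkMup, all below the tumours given above. CD8kMup HCC gave 7.49, 7.15 and 7.71, against 6.54, 7.19 and 6.55 in CD8kMup NC, with CD8kMup NC 2 just above the lowest tumour. Mcm6 was higher by 2.12 ± 0.33 in MupHe (limma adjusted p = 1.17e-05) and 2.04 ± 0.33 in IgAkMup (limma adjusted p = 1.47e-05), and differed by 0.69 ± 0.35 in CD8kMup (limma adjusted p = 0.129). Mcm2, at 6.68, 6.81 and 6.44 in CD8kMup HCC against 5.92, 5.93 and 5.69 in CD8kMup NC, did not overlap and rose by 0.80 ± 0.21 there (limma adjusted p = 0.00423). It rose by 1.27 in MupHe and 1.00 in IgAkMup, over NC values of 5.53, 5.91 and 5.72 and 5.99, 5.81 and 5.83.

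Cdk1 had the largest difference of the 38 in CD8kMup. Cdk1 stood at 6.63, 6.23 and 6.23 in CD8kMup HCC, against 4.73, 5.26 and 5.10 in CD8kMup NC. The groups were apart by nearly 1 unit, and Cdk1 rose by 1.33 ± 0.24 (limma adjusted p = 0.000139). NC livers gave 4.96, 4.49 and 4.23 in MupHe and 4.92, 4.59 and 4.71 in IgAkMup, and the rises there were 1.97 ± 0.23 and 1.59 ± 0.23 (limma adjusted p = 1.6e-07 and 2.83e-06). Ccnb2 stood at 5.60, 5.00 and 5.22 in CD8kMup HCC, against 4.11, 4.77 and 4.37 in CD8kMup NC, and rose by 0.86 ± 0.23 (limma adjusted p = 0.0056). In MupHe NC and IgAkMup NC it read 4.0, 3.71 and 3.54 and 4.13, 4.06 and 4.0, below every tumour, with rises of 1.5 and 1.43.

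Plk1 stood at 4.76, 4.16 and 4.84 in CD8kMup HCC, against 3.60, 3.96 and 3.54 in CD8kMup NC, and rose by 0.89 ± 0.23 (limma adjusted p = 0.0038). MupHe NC gave 3.13, 3.13 and 3.40 and IgAkMup NC 3.41, 3.31 and 3.42, and the rises were 1.80 and 1.40. In each genotype the tumours were above the NC livers. Prc1 stood at 5.95, 5.19 and 6.11 in CD8kMup HCC, against 4.13, 5.36 and 4.79 in CD8kMup NC, where NC 2 was above the lowest tumour. It rose by 0.99 ± 0.28 in CD8kMup (limma adjusted p = 0.00803), 2.03 in MupHe and 1.39 in IgAkMup, over 4.01, 4.08 and 3.85 in MupHe NC and 4.47, 4.53 and 4.54 in IgAkMup NC. Tpx2 stood at 5.55, 5.30 and 5.07 in CD8kMup HCC, against 3.80, 5.06 and 4.40 in CD8kMup NC, and rose by 0.88 ± 0.27 (limma adjusted p = 0.013). Its NC values were 4.14, 4.09 and 3.65 in MupHe and 4.54, 4.14 and 4.13 in IgAkMup, with rises of 1.62 and 1.41.

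Mki67 and Top2a were called in MupHe and IgAkMup and not in CD8kMup. Mki67 stood at 6.68, 6.38 and 7.05 in CD8kMup HCC, against 5.75, 6.90 and 6.45 in CD8kMup NC, so that the groups overlapped and CD8kMup NC 2 exceeded 2 of the 3 tumours. MupHe NC gave 5.48, 5.72 and 5.23 and IgAkMup NC 6.10, 5.98 and 6.00. The differences were 1.71 ± 0.29 in MupHe, 1.42 ± 0.29 in IgAkMup and 0.34 ± 0.31 in CD8kMup (limma adjusted p = 3.66e-05, 0.000246 and 0.419). Top2a stood at 6.46, 5.64 and 6.61 in CD8kMup HCC, against 5.16, 5.88 and 5.39 in CD8kMup NC, with the lowest tumour under NC 2. MupHe NC gave 5.14, 4.70 and 4.76 and IgAkMup NC 5.53, 5.21 and 5.09. It differed by 1.85 ± 0.28, 1.57 ± 0.28 and 0.76 ± 0.30 in MupHe, IgAkMup and CD8kMup (limma adjusted p = 8.22e-06, 5.28e-05 and 0.0505).

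Rrm2, which missed the threshold against NASH, was called against NC in MupHe and IgAkMup. NC livers gave 5.71, 5.66 and 5.36 in MupHe and 5.97, 6.13 and 6.70 in IgAkMup, and the rises were 1.40 ± 0.29 and 0.72 ± 0.29 (limma adjusted p = 0.000455 and 0.0472). In CD8kMup it stood at 6.69, 6.68 and 6.84 in HCC, against 5.58, 6.59 and 6.85 in NC, and the difference of 0.39 ± 0.32 was not called (limma adjusted p = 0.353). The 3 CD8kMup tumours lay within the range of their NC livers. In 7 fits, each without a library of the IgAkMup pair, Rrm2 was no longer called in 4.

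The G1 cyclins held few calls. Ccne1 read 3.73, 3.91 and 3.74 in MupHe NC and 4.01, 4.01 and 4.16 in IgAkMup NC. In CD8kMup it read 4.72, 4.15 and 4.12 in HCC, against 3.95, 4.40 and 4.16 in NC. It rose in MupHe by 0.62 ± 0.24 (limma adjusted p = 0.0361), a call lost in 5 of 7 fits without a library of the pair, and was not called in IgAkMup at 0.56 or CD8kMup at 0.16. Ccne2 read 4.01, 3.75 and 4.06 in MupHe NC and 3.84, 4.10 and 4.56 in IgAkMup NC, and in CD8kMup 3.98, 4.03 and 4.08 in HCC, against 4.09, 4.50 and 4.26 in NC. Its differences of 0.25, -0.15 and -0.25 in MupHe, IgAkMup and CD8kMup were not called. Ccnd1 stood at 9.33, 8.91 and 10.14 in CD8kMup HCC, against 9.38, 9.91 and 10.03 in CD8kMup NC, with full overlap. MupHe NC gave 8.72, 9.31 and 8.93 and IgAkMup NC 9.31, 9.07 and 9.42, and the differences of 0.25, 0.54 and -0.31 were not called either.

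By role, the 16 genes called in CD8kMup were 4 of the 5 S-phase and mitotic cyclin genes with Cdk1, 4 of the 5 mitotic kinase and checkpoint genes, 4 of the 7 spindle genes, 3 of the 6 MCM genes (Mcm2, Mcm5 and Mcm7) and Birc5. None of the G1 and none of the DNA synthesis genes was among them. Birc5 rose by 1.01 ± 0.26 in CD8kMup (limma adjusted p = 0.00375), beside 1.10 in MupHe and 0.93 in IgAkMup. In MupHe, Tk1, Ccne2 and Ccnd1 were the genes not called, and in IgAkMup these 3 with Ccne1, E2f1, Tyms and Pcna. Tk1 read 6.89, 6.72 and 6.75 in MupHe NC, 6.82, 6.88 and 6.86 in IgAkMup NC and 6.64, 6.96 and 6.96 in CD8kMup NC, within the range of the tumours, which in CD8kMup HCC stood at 7.35, 6.56 and 6.75, and its differences were 0.39, 0.10 and 0.03. The CD8kMup count rests on few libraries: it was 8 without CD8kMup NC 1 and 9 without CD8kMup HCC 3. Ccna2, Hmmr and Mcm5 were each no longer called in 4 of 6 fits without a library of that pair. In these comparisons 9, 8 and 5 of the 13 hepatocyte markers and 5, 8 and 4 of the 8 Kupffer cell markers were lower in MupHe, IgAkMup and CD8kMup HCC. Of all genes, 40.1%, 45% and 33.8% were called in either direction. Of the 10 recruited macrophage markers 8, 9 and 8 were higher, against 20.6%, 22.9% and 16.8% of all genes called higher. The part of these cells in the division values was not tested.

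Across all stages and genotypes, 3 of the 38 genes had each of the 11 tumours above each of the 24 other libraries, against 2.62% of the genes tested. They were Aurka, Nusap1 and Tpx2. For Aurka the lowest tumour stood at 4.66 and the highest other library at 4.55, and for Nusap1 they stood at 4.39 and 4.35. For Tpx2 they stood at 5.07 and 5.06, so the separation was narrow in each case. For all 3 the highest other library was CD8kMup NC 2.

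**Figure D4:**
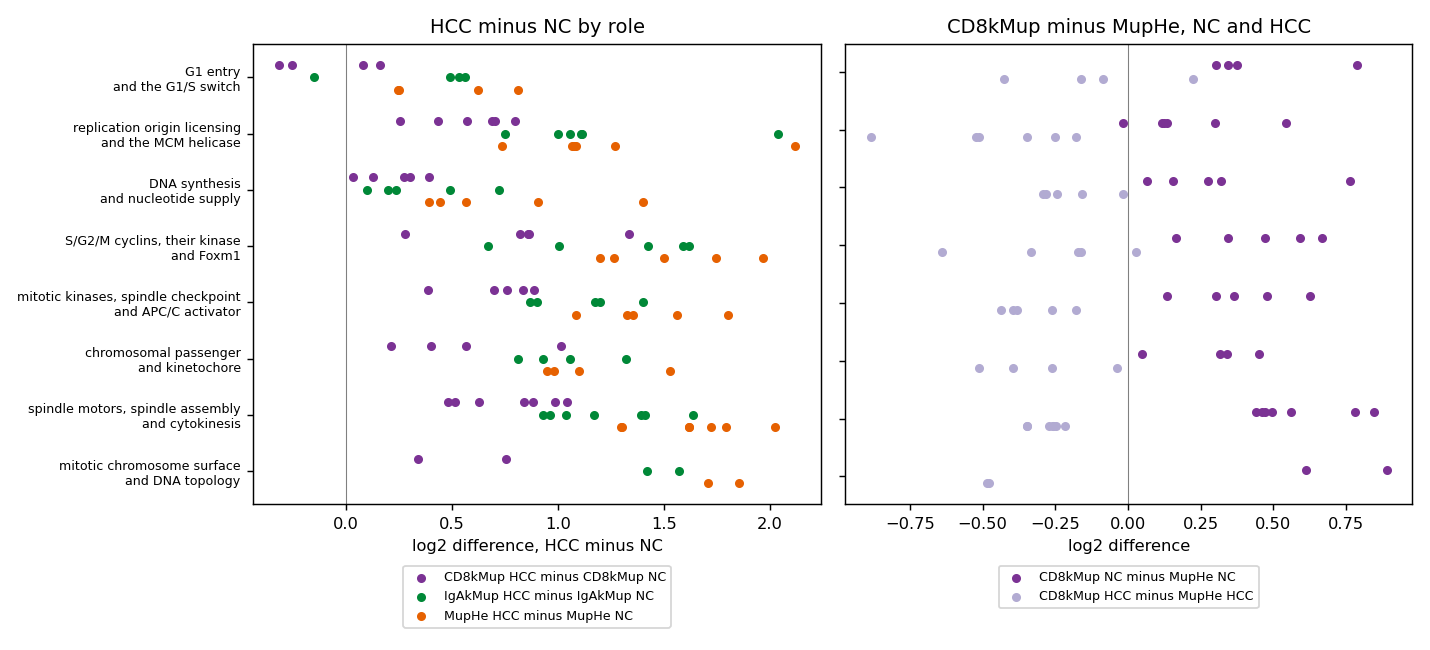
Left, differences between HCC and NC of each gene (points, log2) in CD8kMup, IgAkMup and MupHe, by role. Right, differences between CD8kMup and MupHe in NC and in HCC; 37 of 38 genes are above 0 in NC and 36 of 38 below 0 in HCC, with no gene called in either.

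Since 16 genes were called in CD8kMup and 35 in MupHe, both ends of the comparison were set against MupHe. In NC livers, 37 of the 38 genes had a positive difference of CD8kMup minus MupHe, with a median of 0.37, but none passed limma, against 0.0162% of the genes tested. Of the 38, 8 had an unadjusted p under 0.05, against 2.97% of the genes tested. Top2a differed by 0.61 ± 0.30 and Mki67 by 0.89 ± 0.31 (limma adjusted p = 1 and 1), and CD8kMup NC 2 was the highest of the 12 NC livers in the mean of the 38 genes. In tumours, 36 of the 38 had a negative difference of CD8kMup minus MupHe, with a median of -0.27, and none passed limma, against 1.32% of the genes tested. An unadjusted p under 0.05 was found for 5, each with a negative difference, against 16.2% of the genes tested. Without the 3 tumours that stood apart, 1 of the 38 was called lower in CD8kMup HCC, against 4.3% of genes in either direction. Mcm6 differed by -0.88 ± 0.33 (limma adjusted p = 0.165).

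A test of whether the HCC against NC difference itself was smaller in CD8kMup was added after the counts had been seen. Against MupHe, 38 of 38 estimates of CD8kMup minus MupHe were negative, with a median of -0.71. None passed limma, against 0.0486% of the genes tested, and 19 had an unadjusted p under 0.05, against 8.86%, with a lowest adjusted p of 0.324. Against IgAkMup, the median was -0.44, none passed limma against 2.35% of the genes tested, and 6 had an unadjusted p under 0.05, against 20.6%. Cenpe came nearest, at -0.84 ± 0.28 (limma adjusted p = 0.0888). The counts of 35, 31 and 16 therefore do not show that the genotypes differ in any one gene.

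Between IgAkMup and MupHe tumours, limma called 0 of the 38 genes, against 10.1% of the genes tested, and 0 had an unadjusted p under 0.05, against 26.2%. Without the 3 tumours that stood apart, 4 of the 38 were called lower in IgAkMup HCC, against 16.2% of genes in either direction. That setting left only IgAkMup HCC 7 and 8 and took out IgAkMup HCC 9, the tumour with the highest mean of the 38 genes, at 6.37. The median difference of IgAkMup minus MupHe, over all tumours, was -0.06. Mki67 differed by 0.26 ± 0.27 and Mcm6 by 0.04 ± 0.30. In NC livers, IgAkMup minus MupHe gave a median of 0.17 and no call, against 0.0162% of the genes tested, with 3 at an unadjusted p under 0.05 by limma, against 3.54%. MupHe minus B6 gave a median of 0.08 and no call, against 0.0486%, with 1, Ccnd1, at an unadjusted p under 0.05, against 5.25%. Ccnd1 stood at 8.72, 9.31 and 8.93 in MupHe NC, against 8.02, 8.15 and 7.52 in B6 NC, without overlap, and differed by 1.09 ± 0.47 (limma adjusted p = 0.869).

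NASH livers were set against HFD controls within the tags, since each NASH group shares its tag with 1 control group. MupHe NASH against IgAkCLM HFD control, both Tri N, gave 2 of the 38 genes higher and none lower, against 0.446% of genes called higher and 0.559% in either direction. The median difference was 0.47, and at an unadjusted p under 0.05 by limma 20 genes had a positive and 1 a negative difference, against 10.2% of the genes tested in either direction. IgAkMup NASH against B6 HFD control, both SS N, gave none, against 0.251% in either direction, with a median of 0.18 and 1 gene, Rrm2, at an unadjusted p under 0.05, against 7.55%. The NASH groups also differ from their controls in genotype, which cannot be told apart from the disease here. In the Tri N pair, limma's library weights gave 25 of the 38 higher and 1 lower, against 15.7% of genes in either direction, and a fit of these groups alone gave 7 higher and 1 lower, against 6.04%.

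Mki67 and Ccnb2 were the genes called. Mki67 stood at 6.79, 6.85 and 5.83 in MupHe NASH, against 4.88, 5.42 and 5.27 in IgAkCLM HFD control, and was higher by 1.30 ± 0.31 (limma adjusted p = 0.0426). Ccnb2 stood at 5.09, 4.83 and 4.35 in MupHe NASH, against 3.43, 3.83 and 3.80 in IgAkCLM HFD control, and was higher by 1.07 ± 0.23 (limma adjusted p = 0.0251). The groups did not overlap in either gene, and MupHe NASH 6 was the lowest NASH liver in both. In the SS N pair, Mki67 stood at 6.09, 6.16 and 6.03 in IgAkMup NASH, against 5.41, 5.85 and 5.72 in B6 HFD control, and differed by 0.43 ± 0.31. Ccnb2 stood at 4.45, 4.72 and 4.78 in IgAkMup NASH, against 4.39, 4.23 and 4.08 in B6 HFD control, and differed by 0.42 ± 0.23. These groups did not overlap either, but the gaps were small and neither gene was called (limma adjusted p = 0.867 and 0.756). Both calls were easily lost: in 6 fits, each without a library of the pair, Mki67 was no longer called in 5 and Ccnb2 in 4.

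Ccnd1 had the largest difference of the 38 genes in the Tri N pair and was not called. Ccnd1 stood at 9.62, 9.98 and 9.45 in MupHe NASH, against 7.98, 8.70 and 7.49 in IgAkCLM HFD control, a gap with no overlap and a difference of 1.62 ± 0.47 (limma adjusted p = 0.127). In the SS N pair it stood at 9.27, 9.08 and 9.80 in IgAkMup NASH, against 8.26, 8.12 and 9.57 in B6 HFD control, where HFD control 3 lay among the NASH livers, and it differed by 0.73 ± 0.47 (limma adjusted p = 0.833). The NASH values overlapped those of tumours of the same genotype. The HFD controls and B6 NC livers ran from 7.49 to 8.70 in this gene, except for B6 HFD control 3 at 9.57.

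Among the genes of mitosis, Top2a stood at 5.91, 5.97 and 5.02 in MupHe NASH, against 4.34, 4.60 and 4.66 in IgAkCLM HFD control. Cdk1 stood at 5.37, 5.37 and 4.93 in MupHe NASH, against 4.25, 4.38 and 4.08 in IgAkCLM HFD control. Both pairs were apart, with differences of 1.10 ± 0.30 and 0.98 ± 0.24 that did not pass (limma adjusted p = 0.0953 and 0.0571). In the SS N pair they read 5.47, 5.65 and 5.31 and 5.60, 5.71 and 5.38 in IgAkMup NASH, against 5.20, 5.32 and 5.63 and 4.91, 5.02 and 5.31 in B6 HFD control, and differed by 0.09 and 0.48. Plk1 read 3.97, 4.16 and 3.34 in MupHe NASH, against 3.13, 3.44 and 3.10 in IgAkCLM HFD control, and differed by 0.60, while in the SS N pair, at 3.45, 4.0 and 3.45 in IgAkMup NASH against 3.56, 3.37 and 3.50 in B6 HFD control, it differed by 0.16.

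Rrm2, the gene with the largest difference in the SS N pair, stood at 6.60, 6.68 and 6.44 in IgAkMup NASH, against 5.74, 5.80 and 5.97 in B6 HFD control. The groups were apart and differed by 0.74 ± 0.32 (limma adjusted p = 0.568). In the Tri N pair it stood at 6.28, 6.32 and 6.08 in MupHe NASH, against 6.03, 5.90 and 5.66 in IgAkCLM HFD control, and differed by 0.36. Mcm2 stood at 6.50, 6.22 and 5.80 in MupHe NASH, against 5.68, 6.04 and 5.49 in IgAkCLM HFD control, with overlap, and at 6.38, 6.29 and 6.30 in IgAkMup NASH, against 6.29, 6.14 and 5.95 in B6 HFD control, just without. It differed by 0.44 and 0.20 and was not called. Ccne1 read 4.14, 4.11 and 3.49 in IgAkCLM HFD control and 3.54, 3.69 and 3.96 in B6 HFD control, and its NASH differences were -0.13 and 0.23. Ccne2 read 3.59, 3.72 and 3.70 and 3.89, 4.16 and 4.30 in the same 2 groups, and its differences were 0.42 and 0.01.

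Mcm6, Prc1 and Tpx2, which rose in tumours, were not called in either NASH pair. Mcm6 read 5.90, 6.52 and 5.73 in IgAkCLM HFD control and 6.42, 6.56 and 6.66 in B6 HFD control, and its NASH differences were 0.73 ± 0.35 and 0.66 ± 0.35. Prc1 read 3.80, 4.23 and 4.07 in IgAkCLM HFD control and 4.57, 4.46 and 4.66 in B6 HFD control, with differences of 0.64 ± 0.28 and 0.18 ± 0.28. For Tpx2 the controls stood at 3.57, 4.21 and 3.95 in IgAkCLM and 4.05, 4.42 and 4.45 in B6, with differences of 0.73 ± 0.27 and 0.07 ± 0.27. Of these, only Mcm6 in the SS N pair had its groups apart.

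By non-overlap, 13 of the 38 genes had each MupHe NASH liver above each IgAkCLM HFD control, against 13.6% of the genes tested, and 8 had each IgAkMup NASH liver above each B6 HFD control, against 10.1%. Mki67, Cdk1, Ccnb2 and Rrm2 were in both sets. The difference between the pairs was tested, and none of the 38 passed, against 0.0567% of the genes tested, with 3 at an unadjusted p under 0.05 by limma, against 4.57%, and a median of 0.37. None of the 13 hepatocyte and none of the 10 recruited macrophage and monocyte markers was called in either pair, and of 8 Kupffer cell markers 1 was lower in the Tri N pair. Of all genes, 0.559% were called in the Tri N and 0.251% in the SS N pair, in either direction. The mean level of the recruited macrophage markers ran from 6.08 to 6.31 in MupHe NASH, against 5.23 to 5.40 in IgAkCLM HFD control, and from 6.14 to 6.38 in IgAkMup NASH, against 5.43 to 6.20 in B6 HFD control. Their part in the division values was not tested.

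NASH livers were also set against NC livers of the same genotype. Tag and listed processing tools differ between these groups too and cannot be told apart from the stage. In MupHe, Ccnb2 alone of the 38 was called, against 1.93% of the genes tested, and it rose by 1.01 ± 0.23 (limma adjusted p = 0.0165). The median difference was 0.49, and 18 genes had an unadjusted p under 0.05, against 13.8% of the genes tested. In IgAkMup, Cdk1 and Mcm7 were called, 2 of 38, against 12.9% of the genes tested, with rises of 0.82 ± 0.24 and 0.52 ± 0.16 (limma adjusted p = 0.0239 and 0.0356). The median there was 0.22, and 7 genes had an unadjusted p under 0.05, against 26.6% of the genes tested. In 6 fits per genotype, each without a library of the pair, Ccnb2 was no longer called in 4 in MupHe, and in IgAkMup Cdk1 was no longer called in 4 and Mcm7 in 5. With library weights 24 and 14 genes were called in MupHe and IgAkMup, against 20.1% and 40.2% of genes in either direction. Mki67 differed by 1.01 ± 0.31 in MupHe and 0.07 ± 0.31 in IgAkMup (limma adjusted p = 0.0918 and 0.921).

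Livers on the diet without NASH were examined in B6 HFD control against B6 NC. These groups also differ in tag and listed processing tools, which cannot be told apart from the diet. Here 2 of the 38 genes, Cdk1 and Top2a, were higher and none was lower, against 9.59% of the genes tested called higher and 20.6% called in either direction, with a median of 0.42. In 6 fits, each without a library of the pair, Top2a was no longer called in 6 and Cdk1 in 5, and neither was called with no filter on low values. Top2a stood at 5.20, 5.32 and 5.63 in B6 HFD control, against 4.45, 4.68 and 4.44 in B6 NC, and rose by 0.86 ± 0.30 (limma adjusted p = 0.0388). Cdk1 stood at 4.91, 5.02 and 5.31 in B6 HFD control, against 4.40, 4.42 and 4.25 in B6 NC, and rose by 0.72 ± 0.24 (limma adjusted p = 0.0341). The groups were apart in both genes. Neither call held when IgAkCLM HFD control, which shares Tri with the NC tag, took the place of B6 HFD control. Cdk1 then differed by -0.12 and Top2a by 0.01, and none of the 38 was called, against 2.31% of the genes tested. The exchange also changed the genotype, and the tags still differed, Tri N against Tri NC. Tag, genotype and diet therefore cannot be told apart here. In a fit of the B6 groups alone, 13 of the 38 were called, against 21.5% of the genes tested.

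Of the remaining genes in this comparison, Mki67 read 5.41, 5.85 and 5.72 in B6 HFD control, against 5.26, 4.84 and 5.33 in B6 NC, and differed by 0.52. Plk1 read 3.13, 3.23 and 3.08 in B6 NC and differed by 0.33, and Ccnb2 read 3.79, 3.85 and 3.60 in B6 NC and differed by 0.49. Each of these 3 genes had the B6 HFD controls above the B6 NC livers without a call. Rrm2 read 5.98, 5.45 and 5.68, Mcm2 5.44, 5.32 and 6.27, Ccne1 3.81, 4.19 and 3.32 and Ccne2 4.28, 4.02 and 4.16 in B6 NC, and each overlapped the B6 HFD controls. Mcm6 read 5.37, 6.13 and 6.26, Prc1 3.98, 3.91 and 3.75 and Tpx2 3.68, 3.96 and 3.72 in B6 NC, all under the B6 HFD controls, and differed by 0.62 ± 0.35, 0.69 ± 0.28 and 0.52 ± 0.27 without a call.

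Tk1 had the most negative difference of the 38 genes in several comparisons without tumours. It read 5.77, 6.49 and 6.56 in B6 HFD control, against 6.87, 6.96 and 6.99 in B6 NC, without overlap and with a difference of -0.67 ± 0.32 (limma adjusted p = 0.137). In MupHe NASH it read 6.28, 5.95 and 5.89, against 6.89, 6.72 and 6.75 in MupHe NC and 7.03, 7.13 and 6.42 in IgAkCLM HFD control, again without overlap. The differences were -0.75 ± 0.32 and -0.82 ± 0.32 (limma adjusted p = 0.266 and 0.317), and none of the 3 was called. Afmid, a neighbour on the opposite strand whose exons overlap 1.6% of the exon bases of Tk1, was called lower in B6 HFD control against B6 NC, at -0.68 ± 0.24, and in MupHe NASH against MupHe NC, at -1.01 ± 0.24 (limma adjusted p = 0.0473 and 0.0236). In MupHe NASH against IgAkCLM HFD control it differed by -0.80 ± 0.24 and was not called (limma adjusted p = 0.148). Afmid was also called lower in HCC against NC, by -0.621 in MupHe, -1.003 in IgAkMup and -1.147 in CD8kMup. There the differences of Tk1, given above, were positive and not called. Whether Afmid and Tk1 move together, or share reads, was not tested.

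**Figure D5:**
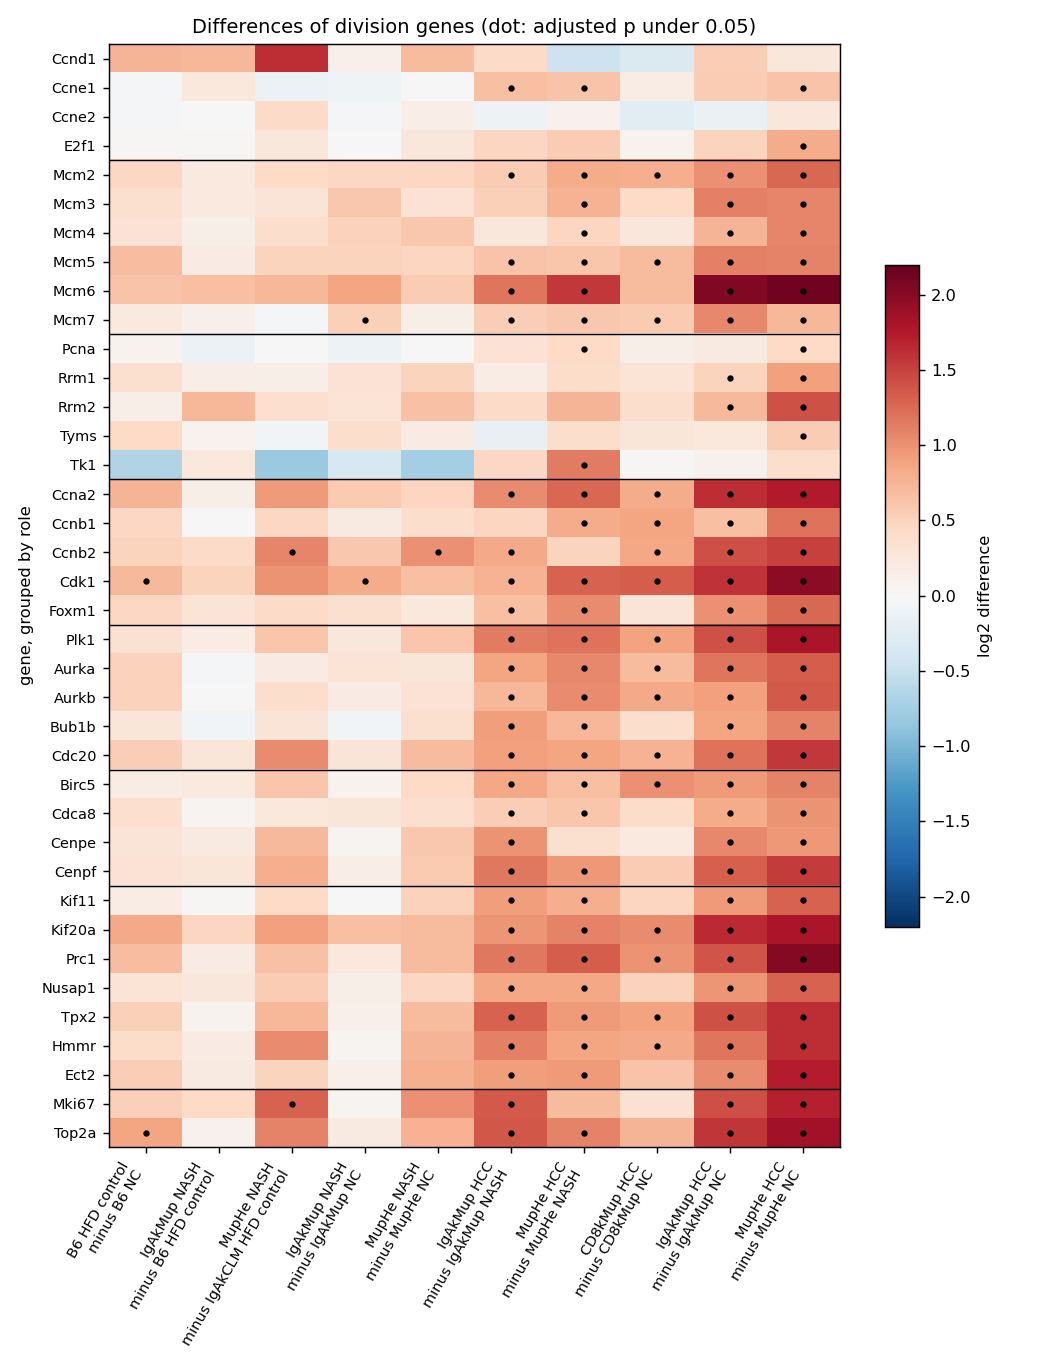
Differences (log2, colour scale) of the 38 genes, grouped by role (horizontal lines), in 10 comparisons, with a dot where limma's adjusted p was under 0.05. Most dots lie in the 5 columns of HCC, and the blocks of G1 and DNA synthesis genes hold few.

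Bub1, a spindle checkpoint kinase gene, and Cdc6, which loads the MCM helicase, were too low for the filter and were fitted with the filter left off, over 18912 genes. Cdc6 stood at 2.35, 3.26, 2.83 and 2.97 in MupHe HCC, against 2.67, 2.60 and 2.28 in MupHe NASH. In IgAkMup it stood at 2.93, 2.78, 3.01 and 3.38 in HCC, against 2.41, 2.39 and 2.36 in NASH, without overlap. Cdc6 differed by 0.34 ± 0.17 in MupHe (limma adjusted p = 0.164) and rose by 0.64 ± 0.17 in IgAkMup (limma adjusted p = 0.00445). It read 2.92, 2.88 and 2.34 in CD8kMup HCC, 2.17, 2.29 and 2.28 in IgAkCLM HFD control and 2.55, 2.52 and 2.30 in B6 HFD control. NC livers gave 2.46, 2.46 and 2.46 in MupHe, 2.54, 2.38 and 2.36 in IgAkMup, 2.30, 2.75 and 2.52 in CD8kMup and 2.26, 2.53 and 2.23 in B6. Against NC, Cdc6 rose by 0.60 ± 0.17 in IgAkMup (limma adjusted p = 0.0069) and differed by 0.40 ± 0.17 in MupHe and 0.19 ± 0.18 in CD8kMup (limma adjusted p = 0.0774 and 0.531). Bub1 ranged over 3.10 to 3.78 in MupHe HCC, against 2.50 to 3.09 in MupHe NASH, and over 2.84 to 4.04 in IgAkMup HCC, against 2.72 to 2.89 in IgAkMup NASH. It differed by 0.49 ± 0.20 in MupHe (limma adjusted p = 0.0882) and rose by 0.71 ± 0.20 in IgAkMup (limma adjusted p = 0.00793). Against NC, Bub1 rose by 0.90 ± 0.20 in MupHe and 0.82 ± 0.20 in IgAkMup (limma adjusted p = 0.00128 and 0.00232). The MupHe NC values were low and nearly equal, at 2.446, 2.447 and 2.448 for Bub1 and 2.46 in each library for Cdc6. Size and error of differences over them are therefore uncertain. In CD8kMup HCC against NC, Bub1 differed by 0.23 ± 0.21 (limma adjusted p = 0.524).

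A wider list of 76 further division genes, 63 of them kept, was counted in the same comparisons. Against NASH, 37 were higher and 2 lower in MupHe HCC, with a median of 0.53, and 34 were higher and 5 lower in IgAkMup HCC, with a median of 0.48, beside 16% and 23.2% of all genes called higher. In either direction the shares of all genes were 30.7% and 43.8%. Against NC, 43, 42 and 20 were higher in MupHe, IgAkMup and CD8kMup HCC, beside 20.6%, 22.9% and 16.8% of all genes, and 2 were lower in each. The shares of all genes called in either direction were 40.1%, 45% and 33.8%. Racgap1, which acts with Ect2 at the cleavage furrow, rose by 1.51 ± 0.23 in MupHe, Lig1, the ligase of replication, by 1.21 ± 0.18 in MupHe and 1.02 ± 0.18 in IgAkMup, and Uhrf1, which maintains DNA methylation at replication, by 1.37 ± 0.26 in IgAkMup against NASH.

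Mcm10 and Spc24 fell in both genotypes. Mcm10, a factor that helps to activate the loaded helicase, ranged over 6.43 to 7.08 in MupHe HCC, against 8.39 to 9.05 in MupHe NASH, and over 6.43 to 6.64 in IgAkMup HCC, against 8.81 to 9.66 in IgAkMup NASH. The groups did not overlap in either genotype, and the differences were -1.89 ± 0.24 and -2.66 ± 0.24 (limma adjusted p = 1.52e-06 and 5.47e-09). Against NC, Mcm10 differed by -2.14, -2.77 and -1.70 in MupHe, IgAkMup and CD8kMup. Spc24, a subunit of the kinetochore complex that grips microtubules, differed by -0.89 ± 0.21 in MupHe and -1.17 ± 0.21 in IgAkMup against NASH (limma adjusted p = 0.00173 and 5.05e-05). No exon of another gene overlaps Mcm10 or Spc24 in the GENCODE annotation. Spc25, the partner of Spc24, was called higher outside tumours, by 1.22 ± 0.16 in B6 HFD control against B6 NC, 0.92 ± 0.16 in MupHe NASH against NC and 1.05 ± 0.16 in IgAkMup NASH against NC. In the B6 and IgAkMup comparisons the livers also differ in tag, SS N against Tri NC. In MupHe the tags are Tri N against Tri NC, and the listed processing tools differ in each of these comparisons. In NASH against HFD control the wider list held 1 call, Cdca3, at 1.38 ± 0.28 in the Tri N pair (limma adjusted p = 0.0133), against 0.559% of all genes. It held 0 in the SS N pair, against 0.251%, where 4 had an unadjusted p under 0.05 by limma, against 7.55% of all genes.

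Of 12 genes that brake the cycle, 11 were kept. Cdkn1a, which encodes the CDK inhibitor p21, ranged over 9.09 to 10.17 in B6 HFD control, against 5.38 to 7.20 in B6 NC, a rise of 3.37 ± 0.38 (limma adjusted p = 6.91e-07). In NASH against NC it rose by 2.28 ± 0.38 in MupHe and 2.39 ± 0.38 in IgAkMup, and in HCC against NC by 2.99 ± 0.36, 3.78 ± 0.36 and 3.59 ± 0.38 in MupHe, IgAkMup and CD8kMup. These rises were called also in B6 HFD control and NASH livers, where few of the 38 genes were. B6 HFD control and B6 NC differ in tag as well as diet, and these cannot be told apart. The mean of the 11 brake genes ran from 6.53 to 6.93 in B6 HFD control and 6.21 to 6.35 in B6 NC. IgAkCLM HFD control, tagged Tri N, gave 6.18 to 6.48. MupHe NASH, also Tri N, gave 6.57 to 6.70, against 6.33 to 6.42 in MupHe NC. Cdkn2c, the gene of the CDK inhibitor p18, was called higher in both NASH pairs, by 0.86 ± 0.17 in MupHe NASH against IgAkCLM HFD control and 1.03 ± 0.17 in IgAkMup NASH against B6 HFD control (limma adjusted p = 0.00957 and 0.00411). Cdkn2b, the gene of the inhibitor p15, rose in HCC against NASH by 1.70 ± 0.65 in MupHe and 3.04 ± 0.65 in IgAkMup, where tumours ranged over 4.26 to 9.26. Tob1, an antiproliferative gene, was lower by -0.72 ± 0.18 and -0.66 ± 0.18.

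Of 18 cyclin and CDK partners and E2F and retinoblastoma family genes, 17 were kept. Against NASH, 4 of the 17 were higher and none lower in MupHe HCC, against 16% of all genes called higher and 30.7% in either direction, and 8 were higher and 1 lower in IgAkMup HCC, against 23.2% and 43.8%. Myc, a transcription factor gene that promotes growth and G1 entry, rose by 1.30 ± 0.27 in MupHe and 1.95 ± 0.27 in IgAkMup (limma adjusted p = 0.00073 and 2.73e-06). Ccnd3, another D-type cyclin, rose by 1.08 ± 0.23 in MupHe, and Cdk4, the partner kinase of D-type cyclins, by 0.48 ± 0.16 there, with 19.7% of its exon bases under exons of Tspan31 on the opposite strand. In IgAkMup, Cdk6 rose by 0.85 ± 0.22 and Rbl1, a retinoblastoma relative, by 0.69 ± 0.17, while Lin52, a subunit of the complex that holds division genes silent in quiescence, differed by -0.44 ± 0.12 (limma adjusted p = 0.00408). Neither NASH pair held a call in this list, against 0.559% of all genes in the Tri N and 0.251% in the SS N pair. An unadjusted p under 0.05 by limma was found for 5 genes of the Tri N and 2 of the SS N pair, against 10.2% and 7.55% of all genes.

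RefSeq promoters of GRCm38.p6 were available for 32 of the 40 genes. Ccna2, Ccne2, Ccnd1, Aurkb, Foxm1, Mcm4, Kif20a and Tpx2 were not among them. Windows of 250 bases before to 50 after the start were searched on both strands for the letters of elements known from division genes. A CCAAT box (CCAAT) was found in 25 of the 32, 78.1%, against 41.1% of 27025 promoters. A CHR-type element (TTTGAA or TTCGAA) was found in 17, 53.1%, against 21.7%, and an E2F-type element (TTTCCCGC, TTTCGCGC, TTTGCCGC or TTTGGCGC) in 6, 18.8%, against 2.6%. Each promoter counted once for a motif, however many copies it held, and copies may overlap, as those of Mcm6 do.

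The matches were counted by role, with no test of a difference between roles. Among genes with a promoter, the CHR-type letters were in 5 of 5 mitotic kinase and checkpoint genes, 4 of 5 spindle genes and both of Mki67 and Top2a, in 2 of 3 S-phase and mitotic cyclin genes with Cdk1 (Cdk1 and Ccnb2), 2 of 4 kinetochore genes (Cdca8 and Cenpf) and 2 of 6 helicase loading genes (Mcm2 and Mcm7), and in none of the 5 DNA synthesis and 2 G1 genes. The E2F-type letters were in Mcm3, Mcm5, Mcm6, Mcm7, Cdc6 and Cdk1, that is in 5 of 6 helicase loading genes and in Cdk1, so that Cdk1 and Mcm7 held both kinds of letters. CCAAT boxes were in every role except the 2 G1 genes with a promoter. These are matches of letters in a window and were not tested as binding sites.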

How the data were processed

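Per the labels' protocols, mouse liver and tumour RNA (100 ng) from AllPrep columns, or from Trizol and RNeasy columns for some livers, went into libraries with the TruSeq Stranded mRNA kit. For the 29 samples on HFD the tools listed are STAR and Cuffdiff, and for the 12 NC samples DESeq2, HOMER and STAR, with mm10 and no versions or roles, per the submitters' processing notes. The authors deposited regularized log2 values (log2 scale) in 1 table of 24511 genes. Such values are scaled for library size and drawn toward the gene's mean at low counts, so differences of weak genes may be understated. How they were made, and whether libraries were scaled together, is not given in the sources used here. Values reached from -2.39 to 20.9. All libraries used were at 0 for 5599 genes. Depth is unknown.

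NC columns were matched to single samples and other columns to groups by name. For 6 columns the name fitted CD8kCLM HFD control as well as CD8kMup NASH. They were not used, so those groups are not analysed here. NC libraries are numbered by their titles, the others by the end of the column name.

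Genes with a mean of at least 3 were kept, 12337 in all. One limma fit (limma 3.58.1, R 4.3.3) of 11 groups was tested by contrasts with eBayes and trend, two-sided, with Benjamini-Hochberg adjustment over the kept genes and a threshold of 0.05. The fit was tested on simulated data. Alternatives were other filters, scalings, library weights, a fit of the compared groups alone, exchanged groups and leaving out single libraries. NC titles share replicate numbers, but same-numbered libraries did not deviate together (18 pairs, correlations -0.21 to 0.23), so they were not paired.

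The genes, the lists and the tests were chosen with earlier results of these data known, and the lists come from general knowledge. Values in every library are given for Mki67, Top2a, Cdk1, Ccnb2, Plk1, Rrm2, Mcm2, Ccne1, Ccne2, Ccnd1 and Cdc6 and for the 3 called genes with the largest rise in each HCC against NASH and NASH against HFD control comparison. Tk1 was added after its values were seen. Of other lists, at most 3 called genes per direction and comparison are named.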

Additional observations from a re-analysis of the deposited data

Results flagged for a closer look

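Mcm7, which encodes a subunit of the replicative helicase, read 6.96 in MupHe HCC 2, against 7.42 to 7.48 in the other 3 MupHe tumours. The gap to the nearest tumour, as a share of the range of the group, was above the critical value of Dixon for 4 values. Of 82 sets of 4 tumours examined in this way (the genes, their mean and the low genes in MupHe HCC and IgAkMup HCC), this was the only one, and chance gives about 1 in 20.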

How the results depend on the processing

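Counts are of the 38 measured cell division genes called by limma, and for each value that moved the cause was not tested unless the alternative itself shows it. Other settings also moved the calls over all genes. A count with no share of all genes beside it is not read as a result about the 38. Of 2071 values of single called differences under other settings, 1840 kept their direction and their call, 230 kept the direction without the call and 1 changed sign. That one was Cdk1 in HFD control against NC, at -0.12 (limma adjusted p 0.883) with IgAkCLM in place of the B6 HFD controls. In the same exchange 0 genes were called, against 2.31% of all genes. With no filter on low values, 1 gene was called in MupHe NASH against IgAkCLM HFD control and 0 in B6 HFD control against NC. A mean of at least 5 left only 17 of the 38 genes. It gave 11 for MupHe HCC against NASH, 8 for IgAkMup HCC against NASH, and 15, 12 and 6 for MupHe, IgAkMup and CD8kMup HCC against NC. It also gave 1 for MupHe NASH against IgAkCLM HFD control and 0 for MupHe NASH against NC. Quantile normalisation gave 0 for MupHe NASH against IgAkCLM HFD control. Library weights gave 17 for MupHe HCC against NASH, against 21.5% of all genes. They gave 26 for MupHe NASH against IgAkCLM HFD control, against 15.7%, and 2 for IgAkMup NASH against B6 HFD control. Against NC they gave 24 for MupHe NASH and 14 for IgAkMup NASH, against 20.1% and 40.2% of all genes, and 8 for B6 HFD control. Between NC livers they gave 1 for IgAkMup and 5 for CD8kMup, each against MupHe. They gave 1 for the difference between the NASH comparisons and 5, all lower, for CD8kMup minus IgAkMup in HCC against NC. A fit of the compared groups alone gave 9 for MupHe and 17 for IgAkMup HCC against NASH, against 9.81% and 26% of all genes. It gave 8 for MupHe NASH against IgAkCLM HFD control, against 6.04% of all genes, and 2 for IgAkMup NASH against B6 HFD control. Against NC it gave 12 for MupHe NASH, 12 for IgAkMup NASH and 13 for B6 HFD control, the last against 21.5% of all genes. For MupHe NC against B6 NC it gave 1. Without MupHe HCC 3 and IgAkMup HCC 5 and 9, IgAkMup HCC held only libraries 7 and 8. In that setting 16 genes were called in IgAkMup HCC against NASH, against 40.8% of all genes. In the difference between the HCC against NASH comparisons 3 were then called, all lower. Against MupHe HCC, 4 were then lower in IgAkMup HCC and 1 in CD8kMup HCC, against 16.2% and 4.3% of all genes in either direction. The mean of the genes by their median in place of their mean gave 1.04 for IgAkMup HCC against NASH, 1.60 and 1.26 for MupHe and IgAkMup HCC against NC, and 0.33 for IgAkMup NC against MupHe NC. The E2F motif was in 3 promoters in the shorter window.

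Leaving out 1 library at a time gave 14 to 30 genes for MupHe and 22 to 29 for IgAkMup HCC against NASH. Against NC it gave 33 to 35 for MupHe HCC, 29 to 32 for IgAkMup HCC, 8 to 18 for CD8kMup HCC, 0 to 2 for MupHe NASH, 0 to 1 for IgAkMup NASH and 0 to 2 for B6 HFD control. It gave 0 to 4 for MupHe NASH against IgAkCLM HFD control, 0 to 1 for IgAkMup and for CD8kMup HCC against MupHe HCC, 0 to 1 for the difference between the HCC against NASH comparisons and 0 to 3 for CD8kMup minus IgAkMup in HCC against NC.

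The replicate numbers of the NC titles did not pair the libraries: of 18 pairs, 3 correlated over 0.1, and 5 of 12 libraries correlated best with their own number. A fit of the NC livers with the replicate number as a block called 1 gene in MupHe against B6, and the same fit without the block, added after the data were seen, also called 1. The tests of differences in HCC against NC were added after the counts were seen. Depth is unknown, so a difference that was not called in a weak gene may be one the libraries could not resolve.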
